A study of Vitis vinifera with 3 samples.

Results

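Short RNA tags of mature berries (MB) at 90 days after flowering (DAF) were compared with those of young berries (YB) at 5 DAF, the last and the first stage sampled from five-year-old vines of the grape cultivar ‘Wink’ (Vitis vinifera). Stone-hardening berries (SB) at 45 DAF lie between them and are given beside both. There was 1 library per stage and no replicate library, so no test between stages was possible, and the labels name grape berries without a treatment. A tag is a distinct sequence with its number of reads, and the tags compared were those of 14 to 17 nt with at least 10 reads summed over YB and MB. There were 676 such tags among the 41342 distinct tags of the series, 27532 of which are of this length and were read at YB or MB. They held 48.4% of the reads listed at YB, 44.5% at SB and 73.6% at MB.

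The lists hold reads of 3 to 17 nt only, with totals of 39791 (YB), 33228 (SB) and 75960 (MB), so the full depth of each library is not known from them. Values are given as reads, as reads per 10000 listed reads, and as log2 (MB/YB) after division by the totals of the lists. A tag was called higher or lower at a change of 2-fold or more. Counts under 3 were set to a floor of 3 reads for the ratio, which is 0.754 per 10000 reads at YB and 0.395 at MB. Intervals are 95% intervals and cover counting error only. The YB and MB libraries were described by the authors in other work, so stage and batch cannot be told apart. The files hold no mRNA, so the tissue could not be checked against marker genes.

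Plant miRNAs are cut from hairpin precursors by a Dicer-like enzyme and guide Argonaute proteins to matching target RNAs. Bases 2 to 8 from the 5′-end are their seed. Reads shorter than a mature miRNA can hold its 5′-part, and other short reads can be pieces of abundant RNAs such as rRNA and tRNA. Mature tRNAs carry the bases CCA at their 3′-ends.

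Tags were grouped into families, each made of a most read tag and the tags that share 13 consecutive nt with it, because tags that differ by a base at an end are not independent items. The 676 tags formed 305 families, of which 167 held a single tag. The most read tag of each of the 10 largest families is printed 5′ to 3′ in lower case, with t for u as in the lists, since these families held 30.9% of the listed reads at YB and 61.6% at MB. Apart from the families of VvmiR166b-h and VvmiR159c and the variant of VvmiR396a-d, no identity was assigned to them.
Family 1: cgggggacggactggg
Family 2: gcggcgacgtgggcgg
Family 3 (VvmiR166b-h): tcggaccaggcttcatt
Family 4: tgcggaaggatcattg
Family 5 (VvmiR159c): tttggattgaagggagc
Family 6: gggatgggtcgaccggt
Family 7: gccggccgggggacg
Family 8 (variant of VvmiR396a-d): ttccacggctttcttga
Family 9: gggacagtcgggggcat
Family 10: tcacgtcgggttcacca

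The first 17 nt of the 10 VvmiRNA groups with at least 10 fragments are shown next, because their summed share was lower at MB and their identity is known. Capitals mark the seed. Members of a group share the first 14 nt, and the asterisk marks the strand paired with the mature VvmiRNA in its precursor.
VvmiR166b-h: tCGGACCAggcttcatt
VvmiR159c: tTTGGATTgaagggagc
VvmiR319e: tTTGGACTgaagggagc
VvmiR396a-d: tTCCACAGctttcttga
VvmiR395a-m: cTGAAGTGtttggggga
VvmiR403a-f: tTAGATTCacgcacaaa
VvmiR3623: tGGTGCTTggacgaatt
VvmiR3623*: tCACAAGTtcatccaag
VvmiR3633a: gGAATGGAtggttagga
VvmiR3633b: gGAATGGGtggctggga
The seeds of these 10 groups all differ from each other.

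More tags differed by 2-fold than not, in both directions. At MB, 243 of the 676 tags were higher (35.9%), 251 were lower (37.1%) and 182 differed by less than 2-fold. The median log2 (MB/YB) was 0.48, and single tags ranged from -7.01 to 4.97. The interval of the ratio lay above 0 in 218 tags and below 0 in 238 tags.

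The balance between both directions depended on how the libraries were scaled. When the totals left out the tags that share 13 consecutive nt with the most read 15 or 16 nt tag, every log2 value rose by 0.69. These are 108 tags, the 22 of Family 1 and rarer ones, and they are meant wherever values without Family 1 are given. Then 350 tags were higher (51.8%) and 232 were lower (34.3%), and the median was 1.17. TMM factors and DESeq2 size factors centre the ratios of the tags. TMM factors moved every value by -0.59 and gave 18.5% higher and 40.8% lower tags. DESeq2 size factors moved them by -0.84 and gave 14.2% and 42.3%. Scaling to the study’s clean reads moved them by 0.85 and gave 54.4% and 33.9%. By the study’s methods, clean reads exclude those of 18 nt and less, so these totals may hold none of the tags compared. Under all 5 scalings, 96 tags were called higher and 229 were called lower. The calls of falls therefore depended less on the scaling than those of rises, which the floor and the larger MB list set in part. All 109 tags with 0 reads at MB had log2 values of -2.67 or lower, so none of these scalings could change their call. The 75 tags with 0 reads at YB had values from 0.80 upwards, so some of their calls changed. A rise less than 0.84 above the threshold was lost with DESeq2 size factors, as for Families 1 and 2 described next.

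**Figure D1:**
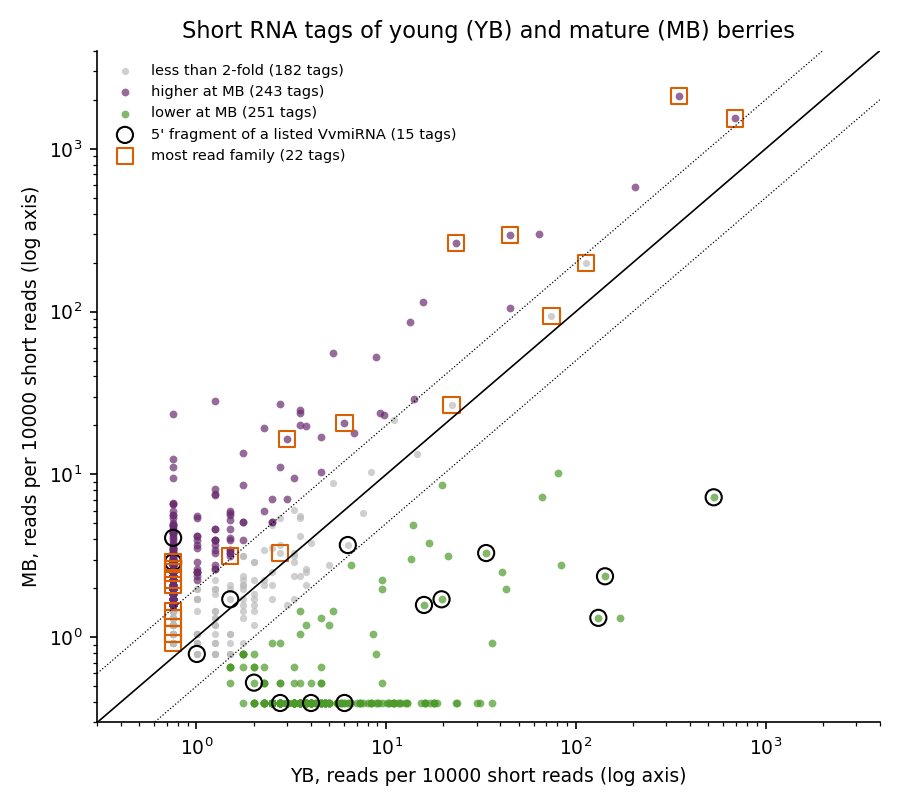
Each point is 1 of the 676 tags, with its reads per 10000 short reads at YB (horizontal) and MB (vertical), both on log axes, and with counts under 3 drawn at the floor of 3 reads. Purple tags (243) were higher at MB and green tags (251) lower, by 2-fold or more beyond the dotted lines. Open circles mark 5′ fragments of listed VvmiRNAs, most of them below the diagonal, and open squares mark the most read family, all of them above it.

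SB lay between YB and MB in 163 of the 243 higher tags (67.1%), in 167 of the 251 lower tags (66.5%) and in 72 of the 182 others (39.6%). With each library scaled to its listed total, SB was nearer to YB than to MB in 63.4% of the higher tags. The share was 79.7% in the lower tags and 59.3% in the others. The share in the higher tags was thus close to that in tags without a call. Since called tags were chosen for a gap between YB and MB, and SB cannot lie below a count of 0 at MB, these shares are in part set by the call itself and are given as a description.

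Family 1 was the most read at every stage and held much of the difference between the libraries. Its 22 tags had 5307 (YB), 4508 (SB) and 34898 (MB) reads, which are 1334, 1357 and 4594 per 10000 reads. SB was close to YB, and MB stood above both, with a log2 (MB/YB) of 1.78 (interval 1.74 to 1.83). Of its tags, 12 were higher, 0 were lower and 10 differed by less than 2-fold. The shares of its tags also shifted. The 15 nt tag gggggacggactggg had 2741 (YB), 2086 (SB) and 11666 (MB) reads (log2 1.16), and the 16 nt tag cgggggacggactggg had 1389, 1412 and 16060 (log2 2.60). The shorter of these was the more read at YB and SB, and the longer was the more read at MB. The tag gggggacggactgg rose from 179 reads at YB and 158 at SB to 2248 at MB (log2 2.72).

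Family 2 was also highest at MB, with SB the lowest stage. It had 1363 (YB), 953 (SB) and 8162 (MB) reads (log2 1.65, interval 1.57 to 1.73), and 8 of its 12 tags were higher and 0 lower. Its most read tag, gcggcgacgtgggcgg, had 813, 550 and 4438 reads (log2 1.52), and the tag with 1 more base at the 5′-end, cgcggcgacgtgggcgg, had 255, 164 and 2290 (log2 2.23). The 5 tags most read at MB all came from these 2 families. Among the 5 tags most read at YB, 2 were fragments of a VvmiRNA or of its variant.

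Families 4, 6 and 10 were higher at MB by more than 4-fold on the totals of the lists. Family 4 had 100 (YB), 664 (SB) and 1269 (MB) reads (log2 2.73, interval 2.44 to 3.04), and per 10000 reads its level at SB, 199.8, was above the 167.1 at MB. The rise of Family 4 was thus already present at SB. Family 6 had 89, 31 and 1055 reads (log2 2.63, interval 2.32 to 2.96), with SB the lowest of the 3 stages. Family 10 had 74, 238 and 649 reads (log2 2.20, interval 1.85 to 2.57), with SB between. Its tags did not move together, since 3 were higher and 2 were lower.

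Families 7 and 9 behaved otherwise. Family 7 had 805 (YB), 193 (SB) and 105 (MB) reads (log2 -3.87, interval -4.18 to -3.58), and all 8 of its tags were lower. Family 9 had 257, 201 and 506 reads (log2 0.04, interval -0.17 to 0.27), so its sum differed by less than 2-fold, while 10 of its 20 tags were higher and 4 were lower. Over all families, 102 of 305 were higher (33.4%) and 129 were lower (42.3%), and the median log2 was -0.06. Of the 138 families of 2 or more tags, 72 had the same call in every tag, 18 of them higher and 44 lower, and 17 held both higher and lower tags.

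Families 7 and 9 overlap other families in sequence, so reads that start at different bases of 1 stretch could be compared. The 2 stretches were chosen after the values had been seen, and whether the tags of a stretch come from the same RNA was not determined. Among families with at least 100 reads, 3 pairs overlapped by at least 10 nt in some of their tags, and these are the 2 pairs whose log2 values differed most. In the other pair, aaataggtaggacggcg and ggtaggacggcgcggct, the values were 0.79 for the 5′ family and 1.16 for the 3′ family, so its 5′ family was not lower at MB. The upper-case part is shared by the most read tags of both families, and the last bases come from longer tags.
First stretch (Families 7 and 1): gccggcCGGGGGACGgactgggaa
Second stretch (a smaller family and Family 9): gattaacaGGGACAGTcgggggcattcg
Along the first stretch, reads that start at base 1 numbered 752 (YB), 178 (SB) and 102 (MB) (log2 -3.81). Those that start at base 7 numbered 1957, 1968 and 19743 (log2 2.40), and those at base 8 numbered 3304, 2508 and 14832 (log2 1.23). Starts 6 bases apart therefore moved in opposite directions. At base 6, the reads rose from 15 at YB and 11 at SB to 153 at MB (log2 2.42).

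The second stretch had the same order of directions. Reads that start at base 1 numbered 78 (YB), 42 (SB) and 0 (MB), and those at base 2 numbered 56, 28 and 6 (log2 -4.16). From base 4 to base 6, the starts were higher at MB, with 5, 3 and 34 reads at base 4 (log2 1.83), 11, 12 and 61 at base 5 (log2 1.54) and 11, 9 and 50 at base 6 (log2 1.25). At bases 8 to 11, where most reads of Family 9 started, they changed by less than 2-fold (log2 from -0.61 to 0.75). In both stretches the reads of the 5′-most start were lower at MB, under each of the 5 scalings, and the starts that were higher lay at its 3′-side. The higher starts at bases 4 to 6 of the second stretch were called on the totals of the lists. With TMM factors, which lower each log2 value by 0.59, only base 4 would pass the threshold, and with DESeq2 size factors, which lower it by 0.84, none of these starts would.

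**Figure D2:**
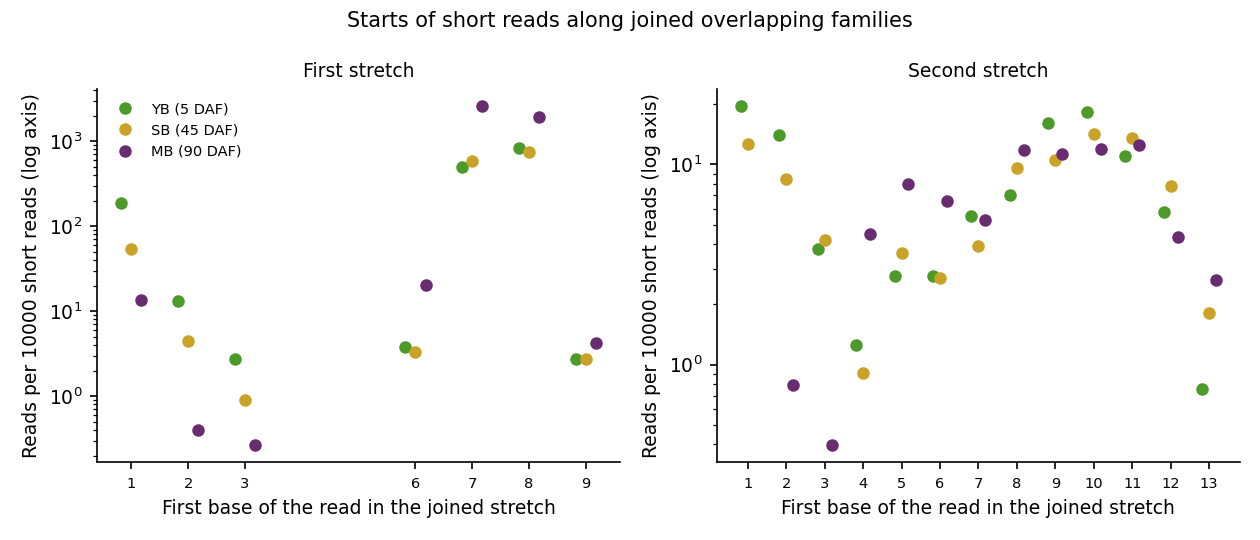
Reads per 10000 short reads (vertical, log axis) by the base of the joined stretch at which the read starts (horizontal), for the first stretch (left) and the second (right), in 1 library per stage. Starts with fewer than 10 reads over the 3 libraries are left out, and a library with 0 reads has no point. At base 1 of both stretches MB is the lowest, with 102 reads against 752 at YB on the left and 0 against 78 on the right, and at bases 6 to 8 on the left MB is the highest.

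Fragments of VvmiRNAs were far less frequent at MB. Reads of 14 to 17 nt identical to the 5′-end of a listed VvmiRNA numbered 3660 at YB (9.20%, interval 8.92 to 9.49), 1585 at SB (4.77%, interval 4.55 to 5.00) and 298 at MB (0.392%, interval 0.350 to 0.439). The intervals do not overlap, and the log2 ratio of the shares was -4.55. Without Family 1 in the totals the share was also lowest at MB, with 10.6% at YB, 5.53% at SB and 0.730% at MB. Of 15 tags among the 676 that are such fragments, 10 were lower and 2 were higher, beside 37.1% and 35.9% of all tags. No tag of the 676 matched the inside of a mature VvmiRNA away from its start. Such fragments do not measure the mature VvmiRNAs, whose full-length reads are not in the lists. For known miRNA reads of mature length, the paper reports the other direction, a gradual rise up to MB.

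VvmiR166b-h and VvmiR159c made up 95.1% of these fragments at YB, 88.1% at SB and 52.0% at MB. In plants, miR166 guides the cleavage of mRNAs of class III HD-ZIP transcription factors. Its fragments numbered 2288 (YB), 712 (SB) and 112 (MB), and were 39.0-fold lower at MB (log2 -5.29, interval -5.57 to -5.01). miR159 acts on mRNAs of GAMYB-like transcription factors, and the fragments of VvmiR159c numbered 1192, 684 and 43 and were 52.9-fold lower (log2 -5.73, interval -6.20 to -5.29). Both were lower at SB than at YB, with counting intervals that do not overlap, and lowest at MB. The fragments of the other groups together were 45.2 (YB), 56.9 (SB) and 18.8 (MB) per 10000 reads, and the log2 ratio of their share, -1.26, was much smaller. These 2 groups were set apart after their values had been seen.

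The lengths of the VvmiR166b-h fragments differed between the stages too. Fragments of 17 nt were 92.7% of them at YB (interval 91.6 to 93.7), 89.9% at SB (interval 87.5 to 91.9) and 49.1% at MB (interval 40.03 to 58.24). The 17 nt tag had 2121 (YB), 640 (SB) and 55 (MB) reads (log2 -6.20), while the 14 nt fragments numbered 25, 14 and 28. The fall thus lay in the longer fragments. Of VvmiR159c, 47.6% of the fragments at YB and 41.9% at MB (interval 28.4 to 56.7) were 17 nt long, and its 16 nt tag had 523 (YB), 297 (SB) and 10 (MB) reads (log2 -6.64).

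Fragments of other VvmiRNAs differed in the direction and size of their change. VvmiR396a-d, of a family that targets mRNAs of growth-regulating factors, had 76 fragments at YB, 99 at SB and 13 at MB (log2 -3.48, interval -4.45 to -2.62). These fragments were thus lower at MB without a fall from YB to SB. VvmiR395a-m, of a family that acts in sulfate uptake and assimilation, had 28, 21 and 1 (log2 -5.74 without the floor, interval -11.1 to -3.14). The fragments of VvmiR3623 rose, with 3 at YB, 6 at SB and 61 at MB (log2 3.41, interval 1.80 to 5.73). VvmiR3623 was the only group of the 10 called higher, and 7 were called lower, with a median log2 of -2.02. Of all families, 33.4% were higher and 42.3% were lower. The count of lower groups depended on the scaling. It was 5 without Family 1 in the totals (median -1.33), and 9 with DESeq2 size factors (median -2.86).

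The remaining groups had few reads. VvmiR403a-f, of a family that targets the mRNA of Argonaute 2, had 8 fragments at YB, 5 at SB and 13 at MB (log2 -0.23, interval -1.61 to 1.24). VvmiR319e, whose family targets mRNAs of TCP transcription factors, had 6, 12 and 9 (log2 -0.35, interval -2.001 to 1.424). Neither was called, and the sign of both values changed with the scaling, over log2 values from -1.08 to 0.62 for VvmiR403a-f and from -1.19 to 0.50 for VvmiR319e. VvmiR3633a had 9, 1 and 2 fragments (log2 -3.10 without the floor, interval -6.35 to -0.83). VvmiR3633b had 6, 1 and 4 (log2 -1.52), and VvmiR3623* had 6, 11 and 5 (log2 -1.20). The intervals of VvmiR3633b and VvmiR3623* include 0, so at this depth no difference could be shown, although both passed the 2-fold threshold. Without Family 1 in the totals neither passed it (log2 -0.83 and -0.51). A further 24 of the 34 groups read at YB or MB had fewer than 10 fragments in sum.

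**Figure D3:**
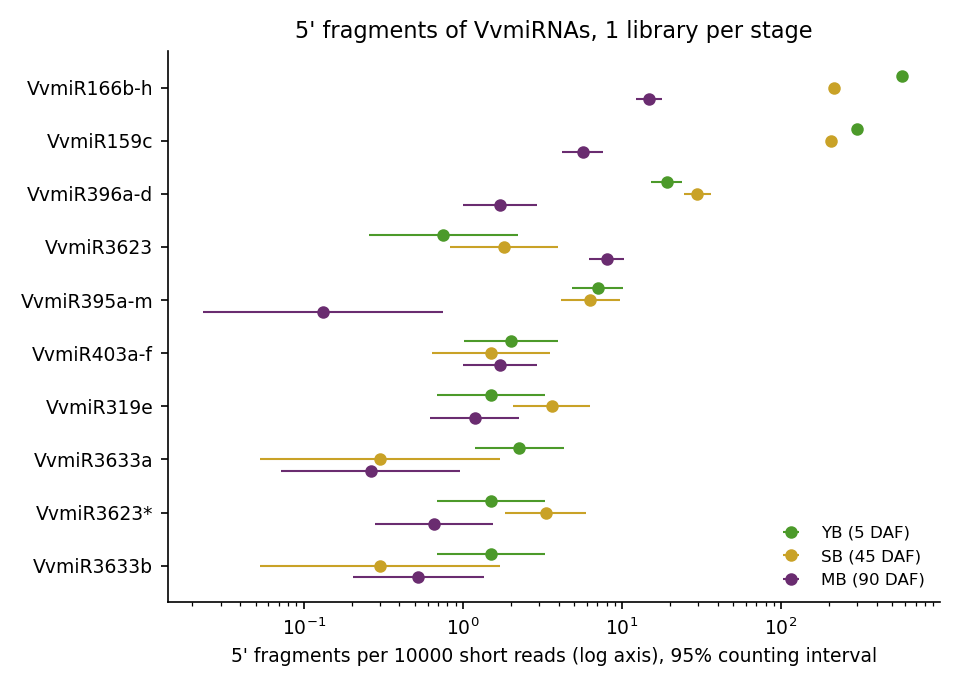
Fragments per 10000 short reads (horizontal, log axis) of the 10 VvmiRNA groups with at least 10 fragments at YB and MB, in 1 library per stage, with 95% Wilson intervals for counting error. VvmiR166b-h falls from 575 to 14.7 between YB and MB and VvmiR159c from 299.6 to 5.66, while VvmiR3623 is the only group whose MB value lies well above YB.

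Family 8 differs from the 5′-end of VvmiR396a-d by a single base and was far more read than VvmiR396a-d itself. The difference is A7G, counted from 1 at the 5′-end, with the listed base first. The capital marks it in both tags.
17 nt tag: ttccacGgctttcttga
16 nt tag: ttccacGgctttcttg
The 17 nt tag had 677 (YB), 428 (SB) and 10 (MB) reads, and at 129-fold (log2 -7.01, interval -8.08 to -6.13) it had the largest fall of the 49 tags with at least 100 reads. The 16 nt tag had 143, 108 and 1 (log2 -8.09 without the floor, interval -13.4 to -5.59). Together they had 820 reads at YB against 76 of VvmiR396a-d, and 11 against 13 at MB. Both were lower at MB, and the log2 value of Family 8, -7.15 (interval -8.16 to -6.31), was below that of VvmiR396a-d beyond counting error.

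The study’s table of new VvmiRNAs is not part of the list of known VvmiRNAs and was compared by hand, after the values had been seen. Sequences were available there for the 5′-arm of the precursors only, so new VvmiRNAs of the 3′-arm could not be compared. The tags matched the 5′-ends of 4 of the entries that could be compared. A family whose most read tag is gttggaagtcggtggg matches VvmiR30 and VvmiR34. It had 405 (YB), 518 (SB) and 84 (MB) reads (log2 -3.20, interval -3.56 to -2.86), and all 4 of its tags were lower. SB was the highest stage, as for VvmiR396a-d. The tag ggaatgggctgattggg matches VvmiR13 and had 5, 4 and 10 reads (log2 0.07, interval -1.62 to 1.97), and catgggcggtttggtaa matches VvmiR37 and had 11, 4 and 1 (log2 -4.39 without the floor, interval -9.82 to -1.61). Not all of these matches were therefore lower at MB.

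Among the 49 tags with at least 100 reads, 27 were higher (55.1%) and 16 were lower (32.7%), beside 35.9% and 37.1% of all tags. The 10 largest falls held 5 exact or variant VvmiRNA fragments, 3 tags of Family 7 and the tags taaggtgtttgcaaagg and cgcgacacttttccaac. The tag taaggtgtttgcaaagg had 124 (YB), 15 (SB) and 0 (MB) reads, and was at least 78.9-fold lower at MB against a floor of 3 reads. The tag cgcgacacttttccaac had 333, 210 and 21 reads (log2 -4.92, interval -5.63 to -4.28). The tags of Family 7 were gccggccgggggac with 120, 24 and 2 reads (log2 -6.84 without the floor, interval -9.90 to -4.96), gccggccgggggacgga with 143, 32 and 7 (log2 -5.29) and gccggccgggggacgg with 170, 28 and 15 (log2 -4.44). In all 10 of these tags SB lay between YB and MB. The 17 nt tag of VvmiR159c, with 567, 325 and 18 reads (log2 -5.91), completes them with the tags given above.

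The 10 largest rises held no listed VvmiRNA. The tag agggacgatcgatggtg rose most, from 3 reads at YB and 16 at SB to 179 at MB (log2 4.97, interval 3.40 to 7.26). It was followed by atgtcgctccgattcgt with 5, 45 and 214 reads (log2 4.49, interval 3.24 to 6.12) and by cgggggacggactgg of Family 1 with 93, 172 and 2012 (log2 3.50). Both leading tags were already higher at SB than at YB. The tag gcggaaggatcattg of Family 4 had 11, 182 and 205 reads (log2 3.29), gtcccgaacccgtcggc had 9, 5 and 147 (log2 3.10) and gggatgggtcgaccggt of Family 6 had 62, 15 and 867 (log2 2.87). The last 2 were lowest at SB. The other 4 of these tags end in CCA.

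Some tags were read at a single end of development. Of the 676 tags, 109 had 0 reads at MB and 75 had 0 reads at YB. Beside taaggtgtttgcaaagg, the most read of those absent from the MB list were caccttggtggttatgg, at least 59.8-fold lower with 94 (YB), 112 (SB) and 0 (MB) reads, and ccataggtaaattcgg, at least 59.2-fold lower with 93, 54 and 0. The most read of those with 0 at YB were agggacgatcgatggtt, with 0, 2 and 50 reads (at least 8.73-fold higher), acgtcgggttcacca, with 0, 19 and 37 (at least 6.46-fold higher), and attagggactctaatga, with 0, 3 and 36 (at least 6.29-fold higher). Reads were present at SB in all 6 of these tags. Because the MB list is the larger, a tag with 0 reads at YB needed 12 reads at MB to be called, and a tag with 0 at MB needed 4 at YB. All 109 tags with 0 at MB were called lower, while 48 of the 75 with 0 at YB were called higher, so the counts of both directions are not on the same footing for tags near the minimum.

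Reads that end in CCA were a larger share of the reads at SB and MB than at YB. The 4 of these tags that are among the largest rises are printed with the 2 most read tags of another CCA family, with the ending in capitals.
Tag of Family 10: tcacgtcgggttcaCCA
Same, 1 base shorter: cacgtcgggttcaCCA
Another CCA family: ccctgctgtcgacgCCA
Same family, 1 base shorter: cctgctgtcgacgCCA
A further CCA family: cggcaggtcggaCCA
Same, 1 base shorter: ggcaggtcggaCCA
Of the reads listed, 424 of 14 to 17 nt ended in CCA at YB (1.07%, interval 0.969 to 1.17), 1346 at SB (4.05%, interval 3.84 to 4.27) and 2288 at MB (3.01%, interval 2.89 to 3.14). SB had the highest share, but without Family 1 in the totals the shares were 1.23%, 4.69% and 5.61%, with MB the highest. Both later stages were above YB in either case.

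Of the 29 tags with this ending among the 676, 16 were higher at MB and 0 were lower, beside 35.9% and 37.1% of all tags, and their median log2 was 1.07 against 0.48 for all tags. Their median share of G and C bases was 68.75%, against 58.8% for all tags. Of the 290 tags at 60% G and C or more, 45.9% were higher and 19.3% were lower, with a median log2 of 0.94. Ending and base composition are therefore not separate observations. The 29 CCA tags belong to 15 families, so they are not 29 independent items. The count of 0 lower tags holds on the totals of the lists. With TMM factors, which lower each log2 value by 0.59, tcccggcaacggaacca (log2 -0.67) would be called lower. With DESeq2 size factors, which lower it by 0.84, tccggtaggtcggacca (log2 -0.35) would be lower too. Under either set of factors, fewer of these tags would be called higher. The tag tcacgtcgggttcacca had 21 (YB), 128 (SB) and 423 (MB) reads (log2 3.40, interval 2.77 to 4.11), and cacgtcgggttcacca had 14, 74 and 188 (log2 2.81). The tag ggcaggtcggacca had 7, 28 and 103 reads (log2 2.95), and cggcaggtcggacca had 14, 46 and 180 (log2 2.75). In these 4 tags SB lay between YB and MB. The tag ccctgctgtcgacgcca had 56, 135 and 220 (log2 1.04), with its highest level per 10000 reads at SB, 40.6 against 29.0 at MB. The tag cctgctgtcgacgcca had 39, 139 and 175 (log2 1.23) and was also highest at SB, 41.8 against 23.0. Among the 29 endings of 3 bases carried by at least 10 of the tags, the share of CCA rose by a log2 of 1.50 (interval 1.35 to 1.65), which could not be told apart from GGG at 1.47 and was 1.14 without the most read CCA family. CCA and GCG were the 2 endings without a lower tag on the totals of the lists. With TMM or DESeq2 size factors, the rise of the CCA share would be less than 2-fold.

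Base composition differed between the tags that rose and those that fell. The median share of G and C bases was 64.7% in the higher tags, 47.1% in the lower tags and 63.4% in the others. Of the 76 tags under 40% G and C, 5 were higher and 64 were lower. Of the 118 tags from 40% to under 50%, 30 were higher and 70 lower, and of the 192 tags from 50% to under 60%, 75 were higher and 61 lower. Of the 290 tags at 60% or more, 133 were higher and 56 lower, and without Family 1 these were 121 and 56 of 268. The share of lower tags thus went from 84.2% in the first class to 19.3% in the last, beside 37.1% in all. Across the 305 families, Spearman’s rho of base composition with log2 (MB/YB) was 0.45 and Pearson’s r was 0.45. This is a description across families of the same 2 libraries, which are not independent replicates.

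Single tags went both with and against this difference in base composition. The tags of Family 7 among the largest falls had 88.2% to 93.75% G and C. The tag tttaactaaagaaacc had 162 (YB), 98 (SB) and 19 (MB) reads (log2 -4.02), and the 4 tags made of A only had 233, 120 and 4 reads in sum. The tag aaagatggtgaactatg, with 1, 4 and 50 reads, was among the 5 tags under 40% that were higher. These examples were chosen after their values had been seen. Over all reads of 14 to 17 nt, G and C made up 54.8% of the bases at YB, 55.7% at SB and 70.8% at MB, and without Family 1 they made up 50.9%, 51.8% and 62.8%. Whether libraries prepared or sequenced differently had a part in this was not tested.

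The first base followed this too. Of the 149 tags that start with T, 35 were higher (23.5%) and 76 were lower (51.0%), beside 35.9% and 37.1% of all tags. Of the 148 that start with C, 70 were higher (47.3%) and 42 were lower (28.4%). Tags that start with A (62 higher and 58 lower of 153) and with G (76 and 75 of 226) were balanced. The median share of G and C was 47.1% in the tags that start with T and 67.7% in those that start with C, so first base and composition are not separate observations.

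**Figure D4:**
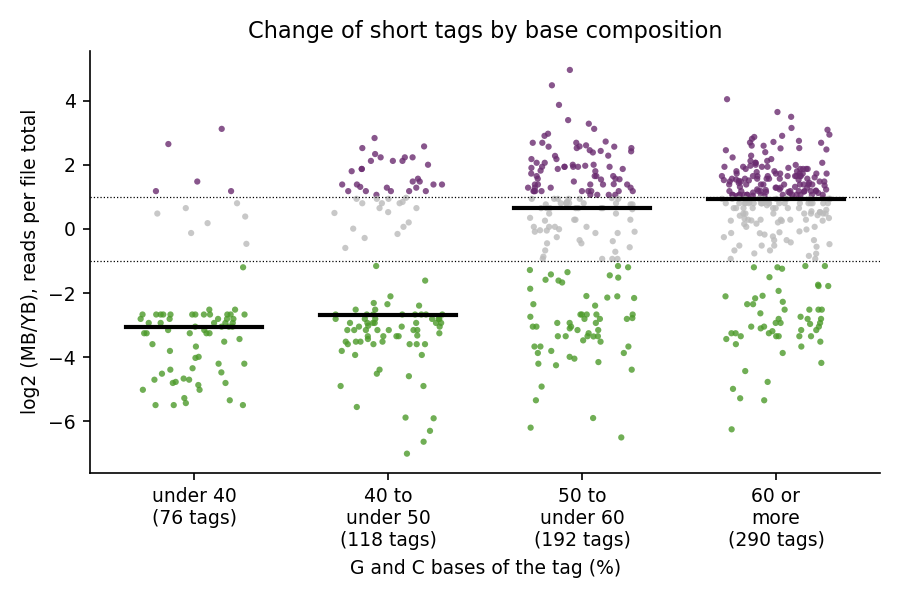
log2 (MB/YB) of each tag (vertical) by its share of G and C bases (horizontal, 4 classes of 76, 118, 192 and 290 tags), with purple for tags higher at MB, green for lower and grey for less than 2-fold. Black bars are medians, -3.05 and -2.67 in the classes under 50% and 0.65 and 0.94 in those above, and dotted lines mark the 2-fold threshold.

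The length profile of the short reads changed between YB and MB mostly through Family 1. Reads of 17 nt were 45.2% of the reads of 14 to 17 nt at YB, 41.8% at SB and 29.8% at MB, and reads of 16 nt were 28.9%, 30.8% and 38.9%. The profiles of YB and MB differed in 15.7% of their reads, taken as the sum of the shares by which one exceeds the other. Without Family 1 they differed in 2.79%, with 51.0% of the reads at YB and 51.7% at MB being 17 nt long. Of the 394 tags of 17 nt, 158 were higher (40.1%) and 128 were lower (32.5%), beside 35.9% and 37.1% of all tags. Of the 160 tags of 16 nt, 47 were higher (29.4%) and 74 were lower (46.25%). Of the 77 tags of 15 nt, 26 were higher (33.8%) and 30 lower (39.0%). Of the 45 tags of 14 nt, 12 were higher (26.7%) and 19 lower (42.2%).

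**Figure D5:**
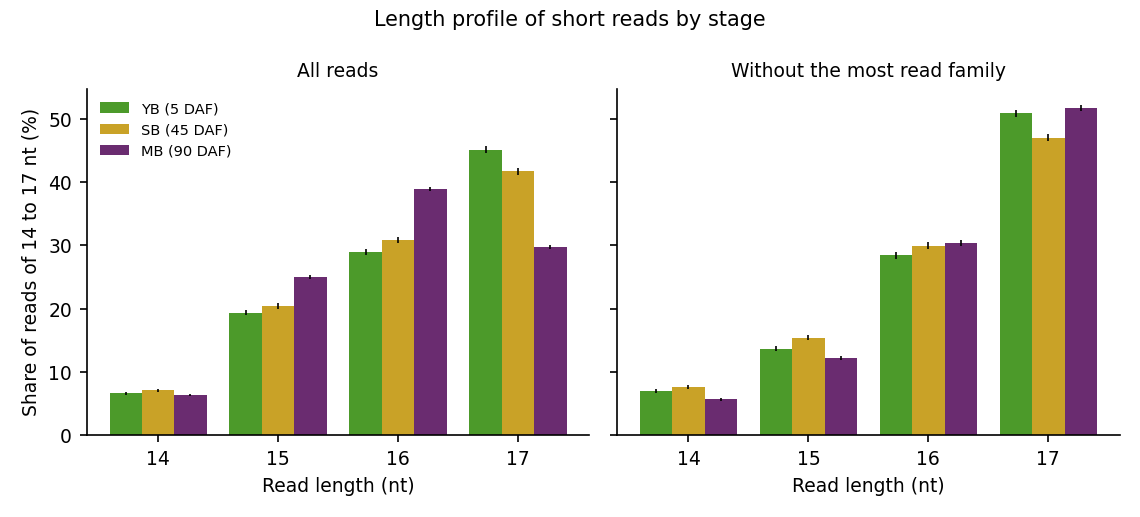
Share of the reads of 14 to 17 nt (vertical, %) by read length (horizontal) at YB, SB and MB, for all reads (left) and without the most read family (right), with 95% Wilson intervals for counting error. On the left, 17 nt reads fall from 45.2% at YB to 29.8% at MB, and on the right they are 51.0% and 51.7%.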

How the data were processed

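Per the labels, small RNA libraries of ‘Wink’ berries at 5, 45 and 90 DAF were sequenced, with 1 library per stage. The authors deposited read counts of distinct sequences with their lengths, without normalization. The trimming and collapsing software is not given in the sources used here. The methods describe excision of 18 to 30 nt RNA from a gel, adapters with molecular identifiers, a BGISEQ-500 sequencer and removal of reads of 18 nt and less, while the labels name Illumina protocols and degradome sequencing besides. Which of these made the deposited reads of 3 to 17 nt, and whether molecular identifiers were counted, was not settled. PCR copies may be counted as reads.

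A ratio was called at 2-fold on the totals of the lists, with 95% exact conditional intervals, and shares carry 95% Wilson intervals. No test and no p-value was computed, because each stage has 1 library. VvmiRNA fragments were matched to the 5′-ends of the 161 entries of the study’s supplementary list of known VvmiRNAs (96 distinct sequences in 86 groups). Tags named in the text are the 5 most read at YB and at MB, the 10 largest rises and falls among tags with at least 100 reads, the 3 most read with 0 reads at the other stage, the 10 largest families and every VvmiRNA group with at least 10 reads. Other examples are said to be chosen later. The members, lists and rules were chosen with earlier results of these data known. At the minimum, 68 tags had 10 reads in sum (medians of 3 at YB and 7 at MB) and 82 tags just outside had 9 (medians of 3 and 6).

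Alternatives were 4 other scalings, 3 other minimums of reads, a pseudocount of 0.5 in place of the floor, 16 and 17 nt only, a 4-fold threshold, 12 and 14 nt for the shared stretch, and tags counted once. Totals for the scaling by clean reads were implied by the study’s supplementary tables. Python 3.11.15 with numpy 2.4.6, pandas 2.3.3, scipy 1.17.1 and matplotlib 3.10.9 was used, and edgeR 4.0.16 (TMM factors) and DESeq2 1.42.0 (size factors) in R 4.3.3. The steps were tested on simulated data. No genome was used, so the origin of tags outside the listed VvmiRNAs was not determined.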

Additional observations from a re-analysis of the deposited data

Results flagged for a closer look

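Reads outside the compared length range were present in every library. Reads of 3 to 13 nt made up 6% of the listed reads at YB (interval 5.77 to 6.24), 5.14% at SB (interval 4.91 to 5.38) and 2.37% at MB (interval 2.26 to 2.48). They entered no comparison except the totals. At SB, which the comparison of MB with YB does not use, 2 tags had at least 10 reads and 0 reads at both YB and MB. They had 28 reads in sum, and the more read had 18.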

How the results depend on the processing

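No paired analysis was possible because each stage has 1 library, and no library could be left out for the same reason. The limits of these data are therefore counting error, scaling and the minimum of reads. Scaling moved every tag by the same amount, so the medians and the rises depended on it most. Against a median log2 of 0.48, the value was 1.17 without Family 1 in the totals, 1.33 on clean reads, -0.11 with TMM factors and -0.36 with DESeq2 size factors, so its sign changed with the last 2. Against 243 higher tags, 125 were called with TMM factors, 96 with DESeq2 size factors and 368 on clean reads. Totals without the 2 most read families, a setting chosen after the data had been seen, gave 375 higher tags and a median of 1.44. Of the families, 63 were higher with TMM factors and 50 with DESeq2 size factors, against 102.

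A minimum of 20 reads left 310 tags with 161 higher, 94 lower and a median of 1.10, and 54 lower families of 148. A minimum of 100 reads left 49 tags with 27 higher, 16 lower and a median of 1.22, and 11 higher and 9 lower of 23 families. Fewer tags were tested in both. With no minimum, 713 of 1700 tags with a defined ratio were lower and the median was -0.52, and 158 of 1424 families were higher and 621 lower. At 4-fold, 73 tags were higher.

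The log2 ratio of the VvmiRNA fragment share was -3.86 without Family 1, -4.96 in 16 and 17 nt reads, -1.26 without VvmiR166b-h and VvmiR159c (chosen later) and -0.29 with each distinct tag counted once, so the fall lay in the reads of a few tags. That of the CCA share was 2.19 without Family 1, 1.14 without its most read family (chosen later) and 0.996 with tags counted once. TMM and DESeq2 size factors would lower the 1.50 found on the totals of the lists by 0.59 and 0.84. The length difference was 2.79% without Family 1, 4.58% with tags counted once and 17.6% in 16 and 17 nt reads.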
